A study of Mus musculus with 12 samples.

Results

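The effect of blue light was compared between 2 mouse tumor lines, P815-IFNG and P815-M. For each gene the light effect was the log2 difference between light and dark tumors of a line. The quantity described here is the light effect in P815-IFNG minus that in P815-M, so that a value below 0 means that light raised a gene less, or lowered it more, in P815-IFNG than in P815-M. All 12 of the 12 libraries entered the comparison, with 3 tumors from 3 mice in each of the 4 groups.

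P815 is a mastocytoma line of DBA/2 mice, a tumor of mast cells that grows as a solid mass under the skin. P815-IFNG cells carry GAVPO, a light-sensitive transactivator driven by the EF-1α promoter together with a Bla marker, a 5×UAS cassette that GAVPO switches on under blue light and that encodes murine Ifng, Cxcl10 and a Gaussia luciferase, and an mRuby-luciferase reporter. P815-M cells carry the mRuby-luciferase reporter alone, with neither GAVPO nor the cytokine cassette. Each line was grown from 1 single-cell clone, so a property of the clone cannot be told apart from an effect of its cassette. Cells were implanted under the skin of the back of DBA/2 mice aged 9 to 10 weeks. The paper used both male and female mice, and the sex of the host did not enter the comparison. Light tumors received blue light for 12 h per day for 6 days, with the mice housed singly in light-controlled cages, and dark tumors received none, so that the cage and the light cannot be told apart within a line. The RNA came from whole tumors. In such bulk samples fewer cells of a type and less RNA per cell cannot be told apart.

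Total counts ranged from 2211234 to 2946792 in 10 libraries and were 41473500 and 42338096 in the 2 others, the third replicates of the P815-IFNG light and P815-IFNG dark groups. These 2 deep libraries stood apart in other ways. Their mt-Nd6 counts, from the mitochondrial gene that lies opposite the others, made up 3.56% and 3.85% of mitochondrial coding counts against 29.0% to 47.9% in the 10 others, and the summed level of 27 mast cell genes was 10381 and 13578 CPM, the counts scaled to a common library size against 2669 to 4112. The comparison was therefore fitted with the deep libraries as a batch term and again on the other 10 libraries. Markers fixed for the tumor cells were present in every library, with a summed level of 1716 to 10569 CPM over 9 mast cell markers. The 3 keratinocyte markers Krt5, Krt14 and Trp63 had 0 counts in all 12 libraries. The transactivator row was counted at 392 to 1784 CPM in P815-IFNG libraries and at no more than 1.65 CPM in P815-M libraries. The cytokine cassette had 11, 6 and 228 counts in P815-IFNG light and 9, 6 and 126 counts in P815-IFNG dark, the last of each in a deep library. It had 2 counts in all 6 P815-M libraries together.

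Interferon gamma signals through its receptor and JAK kinases to switch on guanylate-binding proteins, antigen presentation genes and chemokines, and it activates macrophages. Tumor macrophages clear dead cells and lipid, and they are known for Apoe, Abca1, Trem2 and the C1q chains. Cells short of oxygen stabilise hypoxia-inducible factors, which bind DNA at a short core sequence and raise glucose transporters, glycolytic enzymes and mitophagy genes such as Bnip3. Skeletal muscle myosins, such as Myh4, belong to muscle fibres and not to mast cells, and the back has a thin muscle layer below the skin.

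The 250 bases before the RefSeq start sites (build GRCm38.p6) are shown for 5 genes on which the comparison turned. Apoe and Abca1 led the genes of lipid-handling macrophages, Bnip3 and Ankrd37 led the hypoxia genes, and Myh4 had the smallest p. In Apoe (chr7:19699189-19699438, minus strand, the start listed at the top of 3) and Abca1 (chr4:53159896-53160145, minus strand) capitals mark CACGTG or AGGTCA on either strand. In Bnip3 (chr7:138909507-138909756, minus strand) and Ankrd37 (chr8:45999851-46000100, minus strand) they mark ACGTG or GCGTG on either strand. In Myh4 (chr11:67237562-67237811, plus strand) they mark CAGCTG.
Apoe: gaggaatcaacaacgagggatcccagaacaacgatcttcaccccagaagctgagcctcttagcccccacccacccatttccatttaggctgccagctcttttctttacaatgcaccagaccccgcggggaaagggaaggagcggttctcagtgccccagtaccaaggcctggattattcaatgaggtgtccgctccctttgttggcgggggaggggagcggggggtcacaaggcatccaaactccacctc
Abca1: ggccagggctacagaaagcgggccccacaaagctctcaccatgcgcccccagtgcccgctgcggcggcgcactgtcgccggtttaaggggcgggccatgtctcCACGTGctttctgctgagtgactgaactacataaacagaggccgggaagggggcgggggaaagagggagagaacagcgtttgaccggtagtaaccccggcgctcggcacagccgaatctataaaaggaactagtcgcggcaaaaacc
Bnip3: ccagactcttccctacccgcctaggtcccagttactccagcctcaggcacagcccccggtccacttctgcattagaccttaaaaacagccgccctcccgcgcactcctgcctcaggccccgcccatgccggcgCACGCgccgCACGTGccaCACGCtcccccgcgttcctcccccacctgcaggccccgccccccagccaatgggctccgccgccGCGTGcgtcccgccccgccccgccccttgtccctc
Ankrd37: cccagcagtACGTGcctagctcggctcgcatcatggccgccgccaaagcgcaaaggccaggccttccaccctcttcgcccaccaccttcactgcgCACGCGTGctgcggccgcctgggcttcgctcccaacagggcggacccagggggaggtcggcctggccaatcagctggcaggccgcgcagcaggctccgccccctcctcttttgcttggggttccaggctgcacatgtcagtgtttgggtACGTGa
Myh4: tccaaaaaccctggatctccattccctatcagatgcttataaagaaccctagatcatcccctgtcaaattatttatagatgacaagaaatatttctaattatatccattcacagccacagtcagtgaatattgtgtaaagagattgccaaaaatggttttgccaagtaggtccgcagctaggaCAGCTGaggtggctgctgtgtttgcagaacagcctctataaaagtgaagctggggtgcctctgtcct
Bnip3 held 5 matches to ACGTG or GCGTG and Ankrd37 held 4, counting both strands, so that 1 CACGTG counts as 2 overlapping matches. Of 30 hypoxia and glycolysis genes 28 had a listed promoter, and 22 of these 28 (78.6%) held ACGTG or GCGTG in this window, against 38.6% of 27025 promoters and 1 of 19 (5.26%) of macrophage genes. CAGCTG was found in 10 of 19 (52.6%) promoters of skeletal muscle genes and in 12.8% of all promoters. CACGTG was present in Abca1 and in 6.05% of all promoters, and AGGTCA in 13.8%, with no match to either in this Apoe window. A match is a description of the letters and was not tested against the counts.

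Few single genes differed between the lines in their response to light after adjustment. With the batch term, 3 of 18804 genes (0.016%) were called by edgeR's quasi-likelihood test, which here means a Benjamini-Hochberg adjusted p no higher than 0.05 together with an absolute log2 difference of 1 or more, and all 3 were lower in P815-IFNG: Apoe, Myh4 and the antisense transcript Gm45091. On the 10 other libraries 2 of 16944 genes (0.0118%) were called, Apoe and Rb1. Without a batch term on all 12 libraries 0 genes were called by edgeR and 313 (1.66%) had an unadjusted p under 0.05. At an unadjusted p under 0.05 with the batch term, 349 genes (1.86%) had a difference above 0 and 729 (3.88%) below 0. With DESeq2 size factors in place of TMM these were 463 and 618, so the share below 0 was 67.6% under TMM and 57.2% under the other scaling. Of the 1029 such genes (5.47% of all) that could be tested on the 10 libraries, 710 (3.78% of all) had an unadjusted p under 0.05 and the same sign there, a description only since the fits share 10 libraries.

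Within the lines, in P815-M 178 genes (0.947%) rose and 16 (0.0851%) fell, and in P815-IFNG 1 gene rose and 1 fell (0.00532% each). The 178 genes had a median light effect of 1.44 in P815-M, which chose them, and of 0.39 in P815-IFNG. The P815-IFNG value was above 0 in 149 of them and below 0 in 29, while 8774 of all 18804 genes were above 0 in P815-IFNG. The 16 genes had medians of -1.23 and -0.17. Only the P815-IFNG groups held deep libraries.

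Apoe, the lipid carrier that macrophages secrete, was the gene called in both fits. Its TMM-scaled level was 266, 586 and 132 CPM in P815-IFNG light libraries and 1732, 1312 and 158 CPM in P815-IFNG dark libraries, the last of each being the deep library. In P815-M it was 554, 718 and 814 CPM in light and 293, 284 and 147 CPM in dark. Every P815-M light library lay above every dark library, while in P815-IFNG the ranges overlapped through the deep dark library. The light effect was -1.32 ± 0.33 (SE) in P815-IFNG and 1.53 ± 0.32 in P815-M, a difference of -2.84 ± 0.46 (edgeR adjusted p = 0.0315, n = 3 mice per group). It was -3.36 on the 10 libraries (edgeR adjusted p = 0.035), and the deep pair alone differed by -0.26. The P815-IFNG dark tumors outside the deep pair had the highest Apoe of all. In 6 of the 12 fits that left out 1 library the call was lost, with adjusted p-values of 0.0531 to 0.13 (edgeR), as it was with DESeq2 size factors (0.101) and a robust fit (0.449). The call was also lost with filterByExpr, another count filter, and without a batch term.

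Abca1, which exports cholesterol onto APOE, showed a difference of the same direction that did not pass adjustment in edgeR with the batch term. Its levels were 99.3, 76.6 and 36.9 CPM in P815-IFNG light, 159, 132 and 33.7 CPM in P815-IFNG dark, 74.8, 94.3 and 109 CPM in P815-M light, and 49.6, 44.3 and 37.0 CPM in P815-M dark. The gene rose under light in P815-M (1.09 ± 0.21, adjusted p = 0.0145), and the difference was -1.51 ± 0.29 (adjusted p = 0.135). On the 10 libraries the adjusted p was 0.0583. Abca1 was called by DESeq2 with the batch term. It was also called by edgeR when either deep library was left out. The batch term then fits the other deep library alone, so these fits nearly repeat the 10-library fit.

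Myh4, the myosin of fast muscle fibres, had 0 counts in all 3 P815-IFNG light libraries and 64, 40 and 988 counts in P815-IFNG dark, the last in a deep library. In P815-M it had 0, 12 and 7 counts in light and 0, 1 and 0 in dark. The gene was thus seen in every P815-IFNG dark tumor and in no illuminated one, with few counts in P815-M. Against a floor of 3 counts over the group (0.0649 CPM), the P815-IFNG light mean was at least 284-fold lower than the dark mean of 18.4 CPM, a bound that rests mostly on the counts of the deep library. Over the libraries outside the deep pair the floor was 0.635 CPM and the level was at least 26.2-fold lower than the dark mean of 16.6 CPM. The fitted difference had an adjusted p of 0.00104 (edgeR), and its size depends on the prior count. On the 10 libraries the adjusted p was 0.0583. A fitted value was called in each of the 12 fits that left out 1 library.

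Gm45091 is annotated antisense on chromosome 7 at 35118044 to 35119605, where its bounds share 313 bases with those of Cebpa on the other strand, a myeloid transcription factor. Its counts were 1 and 4 in the deep libraries and 62 to 275 in the 10 others. In P815-M it held 120, 108 and 93.5 CPM in light and 33.6, 32.3 and 37.4 CPM in dark, and in the P815-IFNG libraries outside the deep pair 91.7 and 56.1 CPM in light and 85.3 and 87.1 CPM in dark. It rose under light in P815-M (1.63 ± 0.20, adjusted p = 0.00057), with a P815-IFNG effect of -0.27 ± 0.23 and a difference of -1.91 ± 0.31 (edgeR adjusted p = 0.0315). The call was lost in 6 of the 12 fits that left out 1 library (edgeR adjusted p = 0.055 to 0.153). Cebpa itself, looked up after its neighbor was called, was at 34.8 to 37.1 CPM in P815-M light against 11.5 to 16.4 CPM in dark, and its difference was -1.26 ± 0.37 (adjusted p = 0.526). Other genes that lie opposite a coding gene showed the same split between deep and other libraries: Gm20528 (opposite the Ugt1a genes), Gm26811 (opposite Plxna1) and Adap2os (opposite Adap2) had 16 to 184 counts in each deep library and differences of -1.44 ± 0.26, -1.32 ± 0.26 and -1.57 ± 0.32. Whether reads of the opposite gene entered these rows was not tested.

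Rb1, the retinoblastoma cell-cycle brake, was called by edgeR on the 10 libraries (-2.69, adjusted p = 0.0398) and not with the batch term (-2.08 ± 0.45, adjusted p = 0.202), where DESeq2 called it. When 1 more library was left out of the 10, Rb1 was called in 2 of 10 fits (without P815-IFNG dark replicate 2 or P815-M dark replicate 1) and Apoe in 5 of 10, and both calls were lost with filterByExpr. Rb1 measured 57.1, 57.5 and 59.5 CPM in P815-M light and 27.7, 13.5 and 16.0 CPM in P815-M dark, with 27.8, 33.2 and 10.1 CPM in P815-IFNG light and 82.2, 49.6 and 6.63 CPM in P815-IFNG dark. Its exons overlap those of Rcbtb2 and Lpar6 on the other strand.

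**Figure D1:**
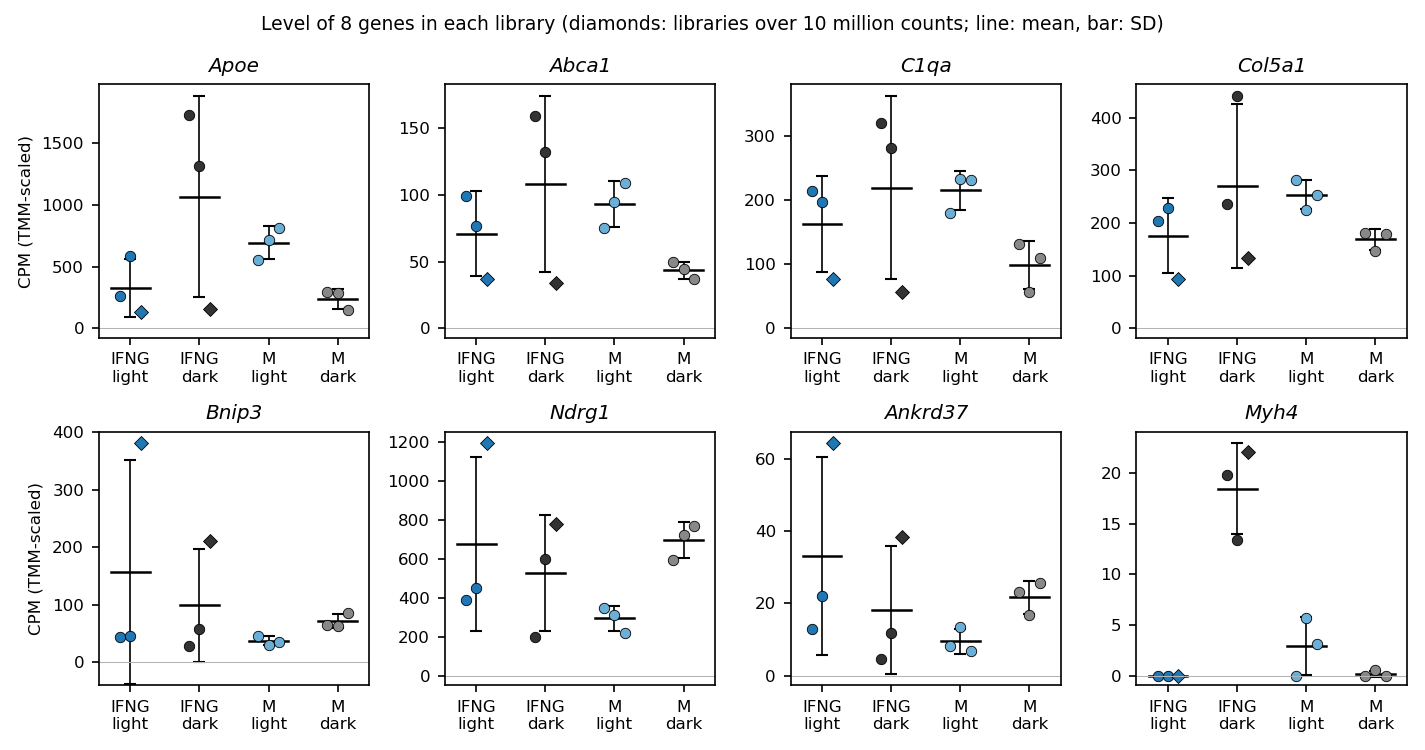
Levels of 8 genes in TMM-scaled CPM (y axis, with a gray line at 0) in the 3 libraries of each of the 4 groups (x axis), with the group mean as a line and the SD as a bar; diamonds are the 2 deep libraries. Apoe, Abca1, C1qa and Col5a1 were higher in each P815-M light library than in each dark one, Bnip3, Ndrg1 and Ankrd37 were lower, and Myh4 was at 0 in every P815-IFNG light library.

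Genes of macrophages and monocytes leaned as a group to a smaller light effect in P815-IFNG. All 27 listed genes were tested. The difference was below 0 in 22 of them, with a median of -0.72 against -0.04 over all genes. At an unadjusted p under 0.05, 10 were lower and 0 higher, against 3.88% and 1.86% of all genes, and 1, Apoe, was called. The median light effect was 0.88 in P815-M and 0.01 in P815-IFNG. In P815-M 14 of the 27 genes had every light library above every dark library, against 10.1% of all genes, and in P815-IFNG 1 did, against 0.994%. On the 10 libraries the median difference was -1.24. When 1 library was left out the median ranged from -1.24 to -0.36 (without P815-IFNG light replicate 2), and it was -0.43 without P815-M light replicate 3. With ComBat-seq and edgeR it was -0.32, and 8 members were lower and 1 higher, against 723 and 379 of all 18804 genes.

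The summed level of the list was 3281 to 3743 CPM in P815-M light and 1698 to 2017 CPM in P815-M dark, without overlap. In P815-IFNG it was 1633 to 3472 CPM in light and 1150 to 4779 CPM in dark, with the lowest value of each in the deep library. In 22 of the 27 genes the mean of the P815-IFNG dark group was above that of the P815-M dark group, against 64.5% of all genes. Among the 10 genes, the C1q chains, which start the classical complement cascade, had differences of like size. C1qa stood at 180, 233 and 232 CPM in P815-M light and 131, 57.3 and 109 CPM in dark, and at 214, 197 and 77.6 CPM in P815-IFNG light and 321, 281 and 56.3 CPM in dark. Its difference was -1.32 ± 0.35 (adjusted p = 0.393). C1qb and C1qc, named after their values were seen, had differences of -1.31 ± 0.41 and -0.93 ± 0.30.

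Further members of the list are known from lipid-laden and phagocytic macrophages. Gpnmb, a lysosomal glycoprotein of such cells, rose under light in P815-M, from 11.7, 1.04 and 1.65 CPM in dark to 28.6, 54.6 and 51.0 CPM in light (3.14 ± 0.67, adjusted p = 0.0209). In P815-IFNG it measured 17.3, 8.78 and 0.810 CPM in light and 45.6, 4.36 and 1.59 CPM in dark, and the difference was -4.08 ± 0.89 (adjusted p = 0.202). It rested on low counts, with 2 and 4 counts in 2 of the P815-M dark libraries. Trem2, the lipid-sensing receptor, had a difference of -2.12 ± 0.55 and Lyz2, lysozyme, one of -1.61 ± 0.56, while the lysosomal protein Cd68 had -0.69 ± 0.30. These 3 genes were named after their values were seen, and the lowest adjusted p among them was 0.366 (edgeR). Nos2 and Arg1, the enzymes that split arginine use in activated macrophages, had differences of 0.69 ± 0.65 and -0.72 ± 0.76, each smaller than or close to its error.

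Complement and class II genes, some of them also in macrophages, had medians below 0 as well. Of 21 complement genes 18 had a difference below 0, with a median of -0.81 and 6 lower at an unadjusted p under 0.05, against 3.88% of all genes. The median was -0.48 without P815-IFNG light replicate 2. Besides the C1q chains the 6 were C4b (-1.11 ± 0.32), the receptor C3ar1 (-1.03 ± 0.33) and the inhibitor Serping1 (-0.86 ± 0.29), of which C3ar1 and Serping1 were named after their values were seen. C4b rose in P815-M, from 83.9, 113 and 145 CPM in dark to 419, 354 and 236 CPM in light (1.56 ± 0.23, adjusted p = 0.00215). In P815-IFNG it stood at 505, 366 and 106 CPM in light and 321, 396 and 61.5 CPM in dark, with overlap. Of 11 class II genes, 9 had a difference below 0 with a median of -0.85, and 1, the class II protease Ctss, was lower at an unadjusted p under 0.05 (-1.31 ± 0.56). H2-Aa and H2-Eb1, the antigen-binding chains, had -1.18 ± 0.63 and -1.23 ± 0.62. The class II median was -1.16 on the 10 libraries, with 5 lower members, against 5.24% of all genes there. When 1 library was left out the median ranged from -1.45 (without P815-M dark replicate 1) to -0.38 (without P815-IFNG dark replicate 1). In the former fit 6 were lower, against 778 of all 18741 genes, and in the latter 0, against 655 of all 18673 genes. Ctss rose in P815-M (1.69 ± 0.40, adjusted p = 0.0422), and H2-Aa had a light effect there of 1.44 ± 0.45 (adjusted p = 0.138).

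Cd36 and Lpl belong to a list of 19 tested adipocyte genes (of 21 listed). Of these, 4 were lower at an unadjusted p under 0.05, against 3.88% of all genes, with a median of -0.39. The median was -1.97 on the 10 libraries, with 9 of 18 genes lower, against 5.24% of all genes there. It was 0.22 without P815-IFNG light replicate 2, with 1 lower, against 644 of all 18740 genes. Cd36, the fatty acid scavenger receptor, rose in P815-M from 10.9, 5.21 and 9.88 CPM in dark to 43.6, 29.2 and 51.4 CPM in light (2.23 ± 0.40, adjusted p = 0.00765). In P815-IFNG it was 44.6, 15.1 and 22.8 CPM in light and 35.7, 28.8 and 8.86 CPM in dark, and the difference was -1.78 ± 0.53 (adjusted p = 0.526). Lpl, lipoprotein lipase, named after its values were seen, had a difference of -1.25 ± 0.54. The adipocyte markers Adipoq, Plin1 and Fabp4 summed to 0.781 to 9.77 CPM in P815-M libraries and to 6.75 to 90.4 CPM in P815-IFNG libraries, and their part in these values was not tested.

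Matrix genes of fibroblasts had the most lower members, by count, of any list with the batch term. Of 29 genes, 26 had a difference below 0 and 13 were lower at an unadjusted p under 0.05, with 0 higher, against 3.88% and 1.86% of all genes. As a share, 44.8%, the matrix list came after the skeletal muscle list (48%). The median difference was -0.74, from median light effects of -0.48 in P815-IFNG and 0.25 in P815-M, and it was -0.88 on the 10 libraries. By edgeR and by DESeq2, both with the batch term, 0 members were called. In the deep pair the median of light minus dark was -0.16.

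Col5a1, a fibrillar collagen chain, had the smallest p of the list. It measured 204, 228 and 94.6 CPM in P815-IFNG light and 236, 441 and 134 CPM in P815-IFNG dark, and 281, 226 and 254 CPM in P815-M light and 182, 146 and 179 CPM in P815-M dark. The difference was -1.18 ± 0.28 (adjusted p = 0.267), and Col5a1 exons overlap those of Gm13372. Lum, a small proteoglycan that binds collagen, was at 4.83, 16.6 and 8.77 CPM in P815-IFNG light below 23.9, 24.8 and 19.7 CPM in dark, and at 17.1, 8.62 and 10.7 CPM in P815-M light above 8.20, 6.25 and 8.23 CPM in dark. Its libraries did not overlap in either line and its difference was -1.86 ± 0.52. Thbs2, a matricellular protein, had -1.60 ± 0.41 and rose in P815-M (1.29 ± 0.32, adjusted p = 0.0486). Col1a1 differed by -0.74 ± 0.32 through P815-IFNG (-0.75 ± 0.22) with -0.02 ± 0.22 in P815-M, and Col1a2, named after its values were seen, had -0.76 ± 0.28. Loxl1, Mfap5 and Dcn, also named so, had -0.87 ± 0.30, -1.06 ± 0.40 and -0.75 ± 0.31.

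Further matrix-related genes outside this list were among those with the smallest p. Timp2, an inhibitor of matrix proteases, was at 226, 223 and 167 CPM in P815-M light and 76.1, 98.5 and 81.9 CPM in dark, and at 220, 229 and 103 CPM in P815-IFNG light and 224, 346 and 87.9 CPM in dark. It rose in P815-M (1.27 ± 0.20, adjusted p = 0.00334) and the difference was -1.42 ± 0.28 (adjusted p = 0.135). Itih5, a hyaluronan-binding protein, stood at 24.9, 27.8 and 23.5 CPM in P815-IFNG light below 43.1, 46.2 and 32.1 CPM in dark, and at 38.4, 23 and 19.2 CPM in P815-M light above 5.07, 12.5 and 13.2 CPM in dark. Its difference was -2.04 ± 0.42 (adjusted p = 0.161). The summed level of the fibroblast and matrix list was 6779 to 10138 CPM in P815-IFNG light, 7577 to 19963 in P815-IFNG dark, 8823 to 10645 in P815-M light and 8163 to 8916 in P815-M dark. P815-IFNG dark replicate 2, at 19963 CPM, stood above the 11 other libraries, and in 25 of the 29 genes the P815-IFNG dark mean was above the P815-M dark mean, against 64.5% of all genes. Leaving out this library moved the number of lower members from 13 to 6, against 617 of all 18684 genes, and the median to -0.42.

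**Figure D2:**
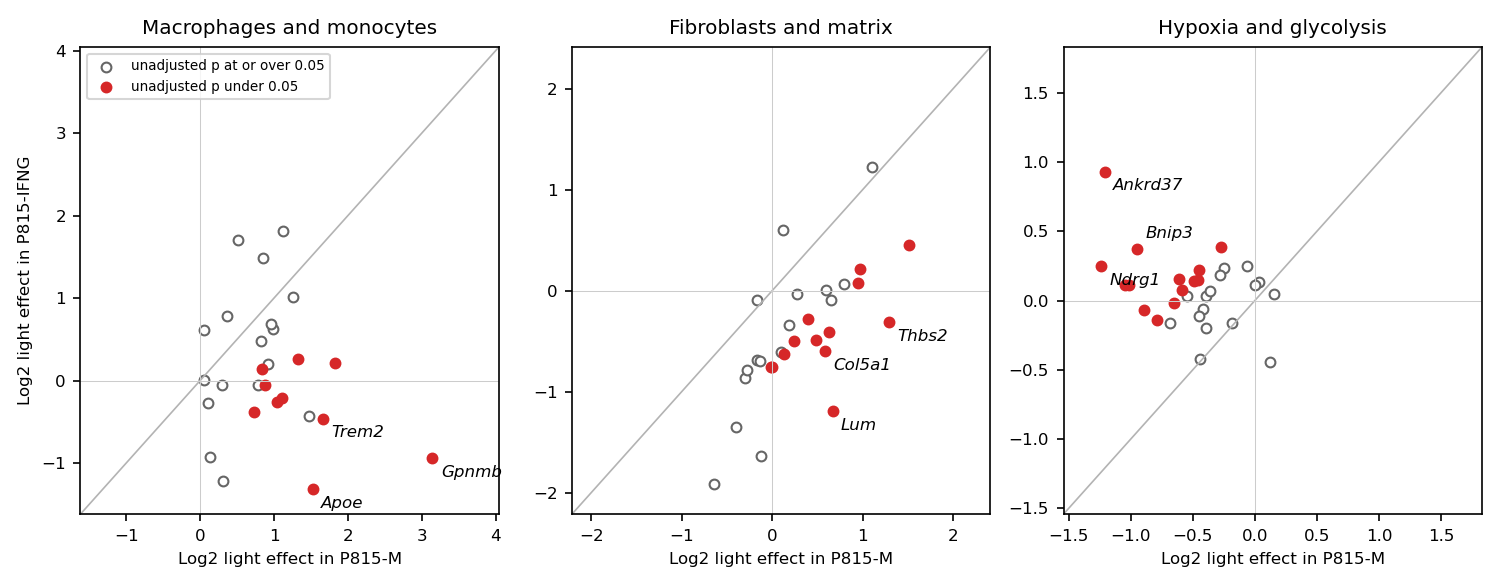
Log2 light effect in P815-IFNG (y axis) against P815-M (x axis) for each gene of 3 lists, with the line of equal effects; red points had an unadjusted p under 0.05 for the difference, and the 3 with the smallest p are named. Of 27 macrophage genes 22, and of 29 matrix genes 26, lie below the line, and 28 of 30 hypoxia and glycolysis genes lie above it.

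Hypoxia and glycolysis genes went the opposite way. All 30 listed genes were tested, and 28 had a difference above 0. At an unadjusted p under 0.05, 14 were higher and 0 lower, against 1.86% and 3.88% of all genes. By edgeR with the batch term 0 of the 30 were called, while DESeq2 with the batch term called Ankrd37, and edgeR without P815-IFNG dark replicate 2 called Bnip3, Ndrg1 and Slc2a1. The median difference was 0.55, from a median light effect of -0.45 in P815-M and 0.09 in P815-IFNG. In P815-M 21 of the 30 genes had every light library below every dark library, against 8.06% of all genes, and in P815-IFNG 0 did, against 2.75%. The summed level was 8497 to 9237 CPM in P815-M light and 11413 to 14073 CPM in dark, without overlap, and 9723 to 17377 CPM in P815-IFNG light against 8739 to 13506 CPM in dark.

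Ndrg1, a stress-responsive growth regulator, fell under light in P815-M, from 592, 720 and 769 CPM to 347, 312 and 221 CPM (-1.24 ± 0.28, adjusted p = 0.0315). In P815-IFNG it was 386, 450 and 1191 CPM in light and 199, 600 and 778 CPM in dark, and the difference was 1.49 ± 0.40 (adjusted p = 0.393). Slc2a1, a glucose transporter named after its values were seen, also fell in P815-M, from 282, 248 and 285 CPM to 159, 127 and 116 CPM (-1.02 ± 0.24, adjusted p = 0.0436), with a difference of 1.13 ± 0.34. The 3 P815-M light libraries lay below the 3 dark libraries for both genes, while the P815-IFNG libraries overlapped.

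Ankrd37, a small ankyrin protein induced by hypoxia, had the smallest p of the list. It measured 12.9, 22 and 64.2 CPM in P815-IFNG light and 4.65, 11.7 and 38.2 CPM in dark, and 8.31, 13.4 and 6.71 CPM in P815-M light and 23, 16.7 and 25.5 CPM in dark. The difference was 2.14 ± 0.46 (adjusted p = 0.202) and 2.29 on the 10 libraries. Bnip3, the mitophagy receptor whose promoter is shown above, stood at 43.0, 45.4 and 382 CPM in P815-IFNG light and 27.3, 57.3 and 211 CPM in dark, and at 45.7, 30.2 and 34.9 CPM in P815-M light and 65.2, 63.0 and 84.8 CPM in dark, with a difference of 1.32 ± 0.35. Both genes were higher in each deep library than in each of the 10 others. Ankrd37, Bnip3, Ndrg1 and Slc2a1 are among the 9 of the 30 members whose exons overlap a gene of the other strand, and the median over the 21 others was 0.48.

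The glycolytic enzymes had smaller differences of the same sign. Pdk1, which shuts pyruvate out of the mitochondria, was at 23.4, 25.4 and 21 CPM in P815-M light and 41.0, 44.3 and 44.4 CPM in dark, and its difference was 0.83 ± 0.25. Gapdh, Pgk1, Pkm and Aldoa had differences of 0.66 ± 0.26, 0.63 ± 0.27, 0.60 ± 0.25 and 0.63 ± 0.27, and Vegfa, the angiogenic factor, had 0.77 ± 0.36. These 6 genes were named after their values were seen. Pfkp, a phosphofructokinase, did not overlap between light and dark in either line, at 592, 672 and 828 CPM against 475, 564 and 549 CPM in P815-IFNG and at 540, 530 and 447 CPM against 566, 624 and 642 CPM in P815-M, a difference of 0.66 ± 0.23 (adjusted p = 0.697).

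The number of hypoxia and glycolysis members at an unadjusted p under 0.05 varied with the libraries. It was 6 higher and 1 lower on the 10 libraries (2.46% and 5.24% of all genes there), with a median of 0.41. Without a batch term it was 0, where 69 of all 18804 genes were higher and 244 lower. When 1 library was left out it ranged from 6 to 19 higher members, against 305 to 460 of all genes in those fits. The median ranged from 0.43 to 0.72.

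**Figure D3:**
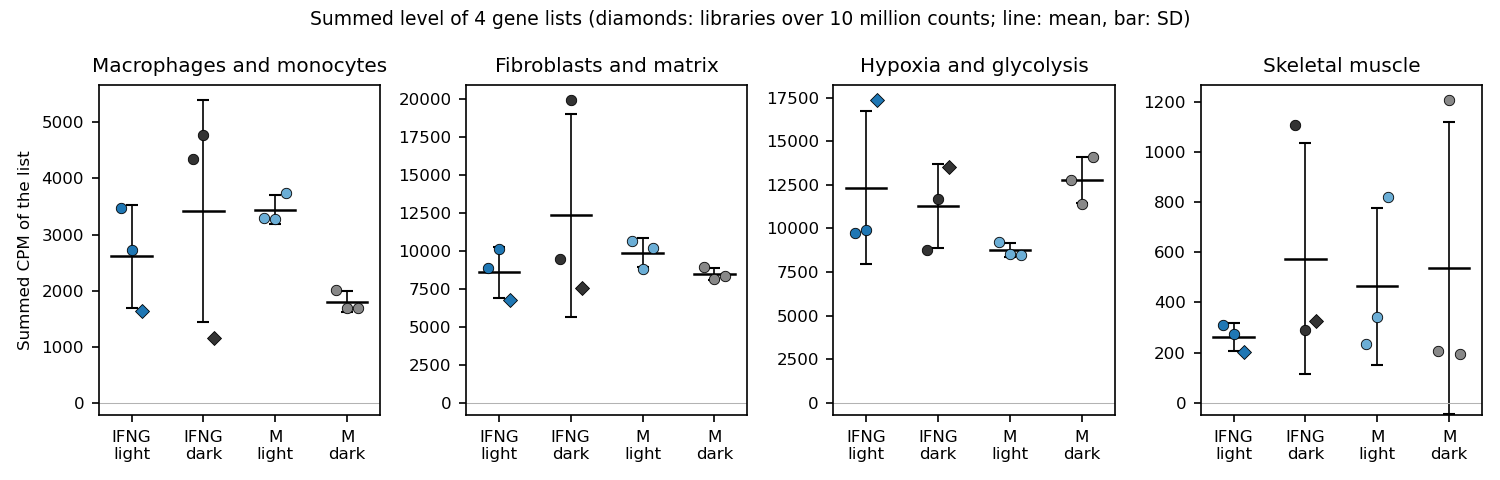
Summed CPM of the members of 4 gene lists (y axis, with a gray line at 0) in the 3 libraries of each group (x axis), with mean and SD; diamonds are the deep libraries. In P815-M the light libraries were above the dark ones for macrophage genes (3281 to 3743 against 1698 to 2017 CPM) and below them for hypoxia and glycolysis genes (8497 to 9237 against 11413 to 14073 CPM), while single libraries hold most of the muscle level.

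Other genes with a small p and a difference above 0 included Rbm3, Sap30, Cdca3, Rpl37 and Mrpl53. Rbm3, the cold-inducible RNA-binding protein, was at 136, 168 and 157 CPM in P815-M light and 271, 287 and 317 CPM in dark, and at 279, 253 and 396 CPM in P815-IFNG light and 287, 256 and 321 CPM in dark. Its difference was 1.01 ± 0.23 (adjusted p = 0.216). Sap30, a subunit of a histone deacetylase complex, and Cdca3, a mitotic regulator, fell in P815-M (-1.06 ± 0.21, adjusted p = 0.0157, and -1.82 ± 0.36, adjusted p = 0.0143) and had differences of 1.18 ± 0.29 and 1.81 ± 0.46. Rpl37, a ribosomal protein, had 0.90 ± 0.23, and Mrpl53, of the mitochondrial ribosome, 1.80 ± 0.48.

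All 31 ribosomal protein genes had a difference above 0 with the batch term, against 46.8% of all genes, with a median of 0.30. At an unadjusted p under 0.05, 1 of them, Rpl37, was higher, against 1.86% of all genes. The median light effect was -0.31 in P815-M and 0.01 in P815-IFNG. In P815-M 17 of the 31 had every light library below every dark library, against 8.06% of all genes. Cell cycle genes had median light effects below 0 in both lines, -0.42 in P815-IFNG and -0.54 in P815-M. In P815-M 21 of the 34 had every light library below every dark library, against 8.06% of all genes, and in P815-IFNG 1 did, against 2.75%. Of the 34 genes 0 had an unadjusted edgeR p under 0.05 for the difference in either direction. Mki67, the proliferation marker, differed by 0.32 ± 0.24.

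Skeletal muscle genes had the lowest median difference of the lists with the batch term, -2.41 over 25 tested genes. At an unadjusted p under 0.05, 12 were lower and 0 higher, against 3.88% and 1.86% of all genes, and Myh4 was called. Without the deep pair the median was -1.90 with 5 lower, against 5.24% of all genes there. With the batch term 3 were lower in a robust fit, against 699 of all 18804 genes. With DESeq2 2 were lower, against 559 of all 18804 genes. The median light effect was -2.74 in P815-IFNG and -0.19 in P815-M. Acta1, skeletal actin, was at 0, 0.488 and 0.162 CPM in P815-IFNG light and 129, 15.1 and 17.5 CPM in P815-IFNG dark, and at 0, 20.6 and 93.9 CPM in P815-M light and 0, 199 and 0 CPM in P815-M dark. Myl1, a fast myosin light chain, had 0, 0 and 0.116 CPM in P815-IFNG light and 22, 1.68 and 6.59 CPM in dark. Acta1, Myl1 and Myh4 were thus near 0 in each illuminated P815-IFNG tumor and present in each dark one, while in P815-M Acta1 and Myh4 differed widely between tumors of one group.

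The summed level of the 25 muscle genes was 201 to 312 CPM in P815-IFNG light, 290 to 1107 in P815-IFNG dark, 235 to 821 in P815-M light and 197 to 1208 in P815-M dark. Fitted differences of these genes depend on the prior count where a group is at 0, which held for 4 of the 25, and 11 of them overlap a gene of the other strand. Leaving out P815-M dark replicate 2, the library with the highest muscle level, moved the median to -5.07. The lower members went from 12 to 20, against 802 of all 18737 genes. Without P815-M light replicate 3 the median was -1.16 and 3 were lower, against 622 of all 18678 genes. How much muscle each tumor sample held was not measured apart from these genes, and its part in the result was not tested.

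Interferon target genes had median light effects above 0 in both lines, and the difference between the lines depended on the deep pair. The 20 tested guanylate-binding and immunity-related GTPases (of 22 listed) had median light effects of 2.23 in P815-IFNG and 1.26 in P815-M. In P815-M 12 of the 20 had every light library above every dark library, against 10.1% of all genes, and in P815-IFNG 4 did, against 0.994%. In 19 of the 20 the P815-IFNG dark mean was above the P815-M dark mean, against 64.5% of all genes. The difference was above 0 in 18 of 20, against 46.8% of all genes, with a median of 0.92. At an unadjusted p under 0.05, 1 gene, Tgtp1, was higher (2.82 ± 1.16), against 1.86% of all genes. With ComBat-seq and edgeR all 20 were above 0, with a median of 1.57. There 14 were higher at that threshold, against 379 of all 18804 genes. On the 10 libraries the median was 0.05. In the deep pair the median of light minus dark was 3.73. Leaving out single libraries moved the median difference from 0.06 (without P815-IFNG light replicate 3) to 1.86 (without P815-IFNG dark replicate 1). In the latter fit 15 members were higher, against 359 of all 18673 genes. Without P815-IFNG light replicate 2, 10 were higher, against 337 of all 18740 genes.

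Gbp2, a guanylate-binding protein, measured 196, 41.5 and 70.9 CPM in P815-IFNG light and 76.3, 23.5 and 4.96 CPM in P815-IFNG dark, with the last of each in the deep pair, and 48.8, 43.6 and 55.9 CPM in P815-M light and 18.7, 14.6 and 30.5 CPM in dark. Its difference was 0.91 ± 0.75 with the batch term and 0.07 on the 10 libraries. Irf1, a transcription factor early in the response, had 0.42 ± 0.47. Cxcl9, the interferon-induced T cell chemokine, had 1.66 ± 0.96. Irf7, a factor of the type I response, had the smallest p of the 28 type I genes, at 111, 109 and 18.8 CPM in P815-IFNG light, 68.3, 70.7 and 10.4 CPM in dark, 117, 72.3 and 90.8 CPM in P815-M light and 94.9, 111 and 92.6 CPM in dark, a difference of 0.82 ± 0.25 (adjusted p = 0.556).

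The chains of the interferon gamma receptor were the 2 lower members, at an unadjusted p under 0.05, of 13 genes for the receptor, its kinases and its factors. Of all genes 3.88% were lower at that threshold. Ifngr1 and Ifngr2 differed by -0.73 ± 0.31 and -0.76 ± 0.35 (adjusted p = 0.812 and 0.849). Class I genes had a median difference of 0.12 and 0 of 20 at an unadjusted edgeR p under 0.05. Counts in the Ifng row were 37, 4 and 76 in P815-IFNG light and 6, 3 and 30 in P815-IFNG dark, the last of each in a deep library. They were 1 to 4 in P815-M light and 0 to 3 in P815-M dark. The Ifng difference of 1.06 ± 1.36 was smaller than its error. Whether cassette reads were counted in the Ifng or Cxcl10 rows was not tested. Cxcl10 differed by 1.88 ± 0.98 (adjusted p = 0.874). The mRuby-luciferase reporter, present in both lines, differed by 0.80 ± 0.35 (adjusted p = 0.832), and the transactivator by 1.32 ± 1.13. The cassette row, nearly empty in P815-M, had a difference of 0.74 to 5.91 when 1 library was left out.

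T and NK cell genes gave different counts with and without the deep pair. Of 34 genes 0 had an unadjusted edgeR p under 0.05 with the batch term, at a median difference of 0.13. On the 10 libraries the median was -0.85, and 23 of the 32 genes tested there were below 0. At an unadjusted p under 0.05, 4 were lower and 1 higher, against 5.24% and 2.46% of all genes there. The 5 defining markers summed to between 2.22 and 31.6 CPM over all libraries. Cd8a had 0 to 19 counts per library and a difference of -0.61 ± 2.11. Cd4 had 1 to 47 counts, the highest in a deep library, and 0.40 ± 1.45. Neutrophil, mast cell and dendritic cell lists had median differences of 0.04, -0.01 and -0.39, with 1 member each at an unadjusted p under 0.05: the chemokine receptor Cxcr2 (0.84 ± 0.29), the mast cell chymase Cma1 (1.04 ± 0.33) and Zbtb46, a dendritic cell factor (-1.49 ± 0.71). Of all genes 1.86% were higher and 3.88% lower at that threshold. Cma1 measured 545, 414 and 1231 CPM in P815-IFNG light, 246, 288 and 960 CPM in dark, 411, 207 and 275 CPM in P815-M light and 350, 295 and 499 CPM in P815-M dark, with overlap in both lines.

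Endothelial genes had a median difference of -0.64 over 20 genes, with light effects of -1.30 in P815-IFNG and -0.46 in P815-M. In P815-IFNG 8 of the 20 had every light library below every dark library, against 2.75% of all genes, and 0 of 20 in P815-M. The vessel receptor Tie1 was the 1 member lower at an unadjusted p under 0.05 (-3.36 ± 1.26), against 3.88% of all genes. It was at 0.804, 0.488 and 0.532 CPM in P815-IFNG light against 8.38, 9.72 and 1.25 CPM in dark. Pecam1, the pan-endothelial adhesion molecule, stood at 25.3, 27.8 and 21.6 CPM in P815-IFNG light below 51.8, 62.0 and 31.4 CPM in dark, but its difference was -0.14 ± 0.42, since the P815-M effect was also below 0 (-0.75 ± 0.31). The median of this list was 0.14 when P815-M light replicate 3 was left out.

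Stress, clock and sterol lists held few members that moved apart. For each count in this paragraph the shares over all genes were 1.86% higher and 3.88% lower at an unadjusted p under 0.05. Of 20 heat shock genes 2 were higher at an unadjusted p under 0.05, the chaperones Hspa1b (1.83 ± 0.63) and Hsph1 (0.66 ± 0.25). Of 25 oxidative stress genes 2 were higher and 2 lower: the metallothioneins Mt1 (0.66 ± 0.27) and Mt2 (0.75 ± 0.28), and the redox enzymes Txnrd1 (-0.79 ± 0.30) and Prdx1 (-0.95 ± 0.36), the last named after its values were seen. Of 21 clock genes 2 were lower, the output factor Hlf (-1.60 ± 0.60) and Npas2, which had 0 to 5 counts in each of the 10 libraries. Nr1d1, Dbp and Per2 differed by -0.06 ± 0.27, 0.03 ± 0.29 and -0.29 ± 0.36. Of 23 cholesterol synthesis genes 2 were higher and 1 lower, with Cyp51, a demethylase of the pathway, at 0.90 ± 0.37 and Fdft1, squalene synthase, at -1.02 ± 0.26. Fdft1 overlaps Ctsb and Cyp51 overlaps Akap9 on the other strand. The checkpoint genes Vsir and Tigit, lymphocyte inhibitors, had -0.90 ± 0.31 and -3.15 ± 1.18, as the 2 lower members of 21. Lists for chemokines, immediate early genes, the unfolded protein response and p53 targets had 0 members with an unadjusted edgeR p under 0.05, with median differences of -0.16, 0.12, 0.09 and -0.32. Of 13 tested B and plasma cell genes 2 were lower (median -1.24). The nuclear respiratory chain and pyroptosis lists had 1 higher member each and medians of 0.08 and -0.10, and the 7 tested keratinocyte genes had 0 such members by edgeR and a median of -0.27. The 5 tested genes of Xist and the Y chromosome all had a difference below 0 (median -0.99), with 0 at that threshold by edgeR. Their summed level was 15.8 to 20.6 CPM in P815-M light and 5.21 to 10.9 CPM in P815-M dark. The part of host sex was not tested.

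**Figure D4:**
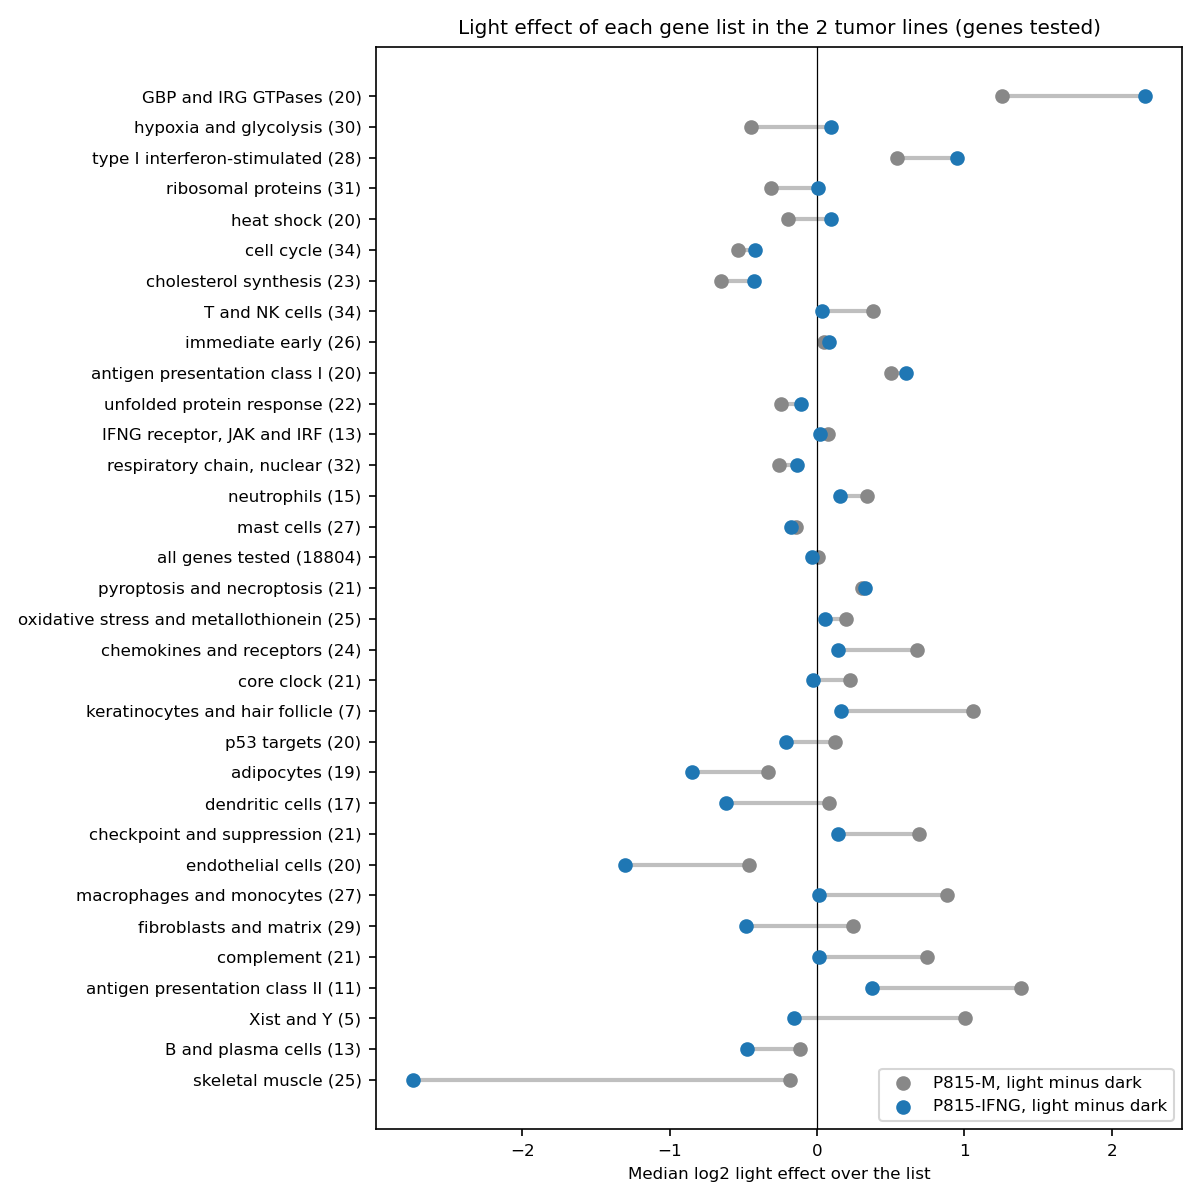
Median log2 light effect (x axis) in P815-IFNG (blue) and P815-M (gray) for each of the gene lists and for all 18804 genes tested, ordered by the median difference (y axis, number of genes tested in brackets). Muscle genes are at the bottom (-2.74 in P815-IFNG, -0.19 in P815-M), the interferon-induced GTPases at the top (2.23 and 1.26), and hypoxia and glycolysis genes next to them with medians of opposite sign (0.09 and -0.45).

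Few genes moved in opposite directions in every tumor. With no overlap between light and dark libraries in either line, 8 genes (0.0425%) were higher in P815-IFNG light and lower in P815-M light, and 15 (0.0798%) the reverse. Those higher in P815-IFNG included Pfkp, Zfp7, Tmub1, Rpl28 and Mtm1, with differences from 0.39 to 1.33. Zfp7, a zinc finger protein, was at 27.8, 37.6 and 23.2 CPM in P815-IFNG light and 16.8, 19.8 and 22.3 CPM in dark, and at 13.5, 12.5 and 13.4 CPM in P815-M light and 14.8, 39.6 and 14.4 CPM in dark, so that 1 dark library carried much of its P815-M effect. The reverse group included Itih5, Lum, Chpf, which builds chondroitin chains, Lrrc8d, a subunit of volume-regulated anion channels, and Fbxw5, a ubiquitin ligase adaptor. Chpf stood at 26.5, 24.4 and 31.8 CPM in P815-IFNG light and 47.5, 45.6 and 41.9 CPM in dark, and at 48.3, 48.4 and 59.0 CPM in P815-M light and 42.9, 44.8 and 32.1 CPM in dark, and its difference was -1.06 ± 0.27 (adjusted p = 0.366). Of these 23 genes 19 had an unadjusted p under 0.05 by edgeR with the batch term, against 1.86% (higher) and 3.88% (lower) of all genes. Non-overlap in the same counts chose these genes and nearly fixes a small p, so the 19 are a description only. By edgeR with the batch term 0 of the 23 were called. DESeq2 called 1 of them, Itih5, with the batch term and on the 10 libraries.

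**Figure D5:**
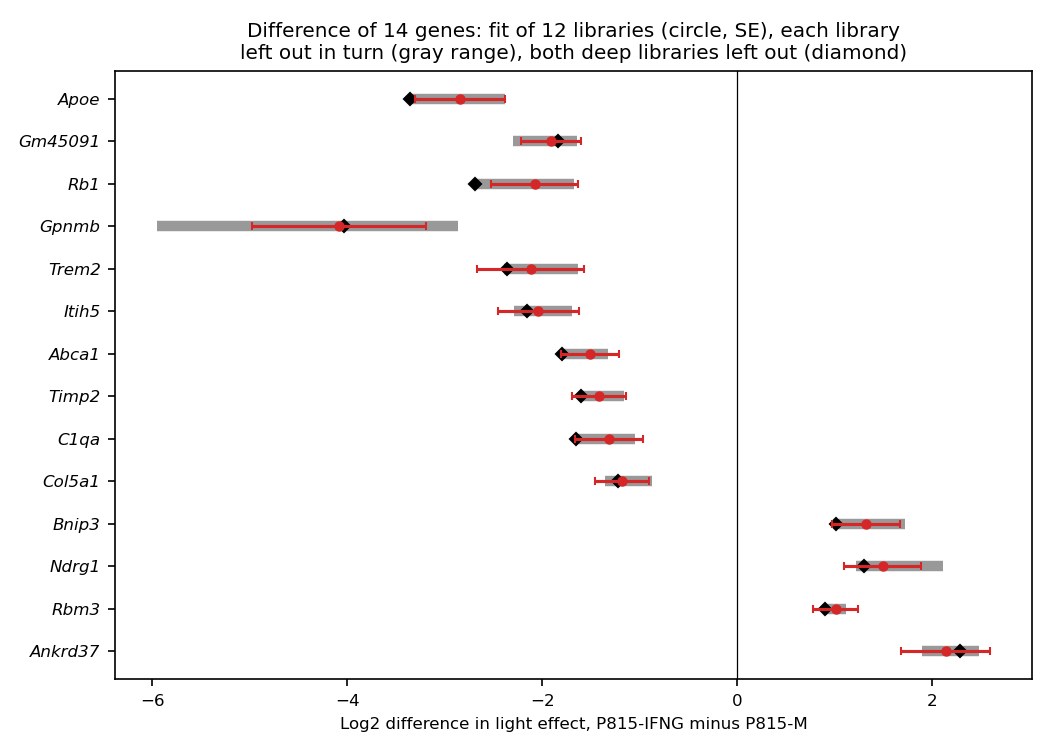
Log2 difference in light effect, P815-IFNG minus P815-M (x axis), of 14 genes (y axis): circles with SE bars are the fit of 12 libraries, gray ranges the 12 fits that each left out 1 library, and diamonds the fit of 10 libraries. The sign held in every fit drawn for these 14 genes, from -3.35 to -2.38 for Apoe and from 1.90 to 2.48 for Ankrd37, and the range was widest for Gpnmb (-5.95 to -2.86).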

How the data were processed

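RNA was sequenced from 12 whole tumors, 3 per group. Per the labels and methods, the authors trimmed reads with fastp, aligned them with STAR 2.7.9a to mm10 plus the knock-in sequences, and counted them per gene with HTSeq 0.13.5. The annotation release is not given in the sources used here. The deposited values are raw counts, of which column 3 of each file was used. They carry neither the removal of mitochondrial genes nor the ComBat-seq adjustment that the study's own analysis applied with DESeq2 1.32.0.

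Groups came from the labels. Mitochondrial rows and genes with a total under 10 counts were dropped, which left 18804 genes, or 16944 without the 2 libraries whose totals exceeded 10000000 counts (the deep libraries). Counts were TMM-scaled and tested with the quasi-likelihood test of edgeR 4.0.16 in R 4.3.3 on 4 group means with a deep-library term, and p-values were adjusted over all genes tested (Benjamini-Hochberg). SE is the fitted log2 difference divided by the root of its F value. Levels are CPM after TMM scaling and list levels are their sums. CPM is not per length, so genes were not compared with each other. Statistics were checked on simulated counts.

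Genes were named where called, by smallest p among genes of at least 5 CPM in a group whose libraries did not overlap in a line, by opposite non-overlap in the lines, as the 2 members of each list with the smallest p, or as fixed genes of interest. Others are stated as chosen after their values were seen. The members and the gene lists were chosen with earlier results of these data known. Promoters were RefSeq sequences of GRCm38.p6, and overlaps on the other strand were read from GENCODE annotation of the same build. The kit marks strand per the labels, but whether counting used it, and alike in all libraries, was not tested. The mt-Nd6 share of mitochondrial coding counts was 3.56% and 3.85% in the deep libraries and 29.0% to 47.9% in the 10 others. p-values measure the spread between mice. Total counts bound the precision, with 3 counts as the floor in a library, 1.02 to 1.36 CPM in 10 libraries and 0.0709 to 0.0723 CPM in the deep ones, for counting error only.

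Alternatives were no batch term, leaving out the deep libraries, ComBat-seq (sva 3.50.0), DESeq2 1.42.0, its size factors, other count filters, kept mitochondrial rows, a replicate block, a robust fit, no overlapping genes, no minimum fold and leaving out each library.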

Additional observations from a re-analysis of the deposited data

Results flagged for a closer look

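In 4 genes the light effect differed between the tumor lines by a test of the difference itself. With the batch term these were Apoe (-2.84, edgeR adjusted p = 0.0315), Myh4 (-14.89, adjusted p = 0.00104, with 0 counts in all 3 P815-IFNG light libraries, so that its fitted size is no bound) and Gm45091 (-1.91, adjusted p = 0.0315). On the 10 libraries outside the deep pair Rb1 (-2.69, adjusted p = 0.0398) and Apoe passed. Of the 10 fits that left out 1 more library, Rb1 passed in 2 and Apoe in 5. Gm45091 had 1 and 4 counts in the deep libraries, and Rb1 shares exon sequence with genes of the other strand.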

How the results depend on the processing

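The 3 genes called for the difference became 0 without a batch term (313 at an unadjusted p under 0.05), 40 with ComBat-seq and edgeR, 6 with ComBat-seq and DESeq2, 23 with DESeq2, 1 with its size factors, 1 with filterByExpr, 203 with no count filter and 16 with a replicate block. Leaving out single libraries gave 1 to 14, with 14 without P815-M dark replicate 2, 8 without P815-IFNG dark replicate 2, 7 without either deep library and 1 without P815-IFNG light replicate 2 or any of P815-M light replicate 1, P815-M light replicate 2 and P815-M dark replicate 3. The 2 genes called within P815-IFNG became 0 without a batch term, 1 without the deep libraries or with filterByExpr, 150 and 85 with ComBat-seq (edgeR and DESeq2), 58 with DESeq2, 211 with no filter, 62 with the block, 9 in a robust fit, 11 without overlapping genes and 1 to 52 without single libraries, 52 without P815-IFNG light replicate 2. The 194 within P815-M became 0 without a batch term, 293 with DESeq2, 429 with no filter, 123 without overlapping genes and 61 to 237 without single libraries, 61 without P815-M light replicate 1. The 2 genes called on the 10 libraries became 0 with filterByExpr, 297 with no filter, 14 with the block, 7 in a robust fit, 26 with DESeq2, 4 without overlapping genes and 0 to 3 without single libraries; these 10-library alternatives, beyond the fit itself, were chosen after seeing the data. The cause of these shifts was not tested.

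The replicate numbers did not pair the libraries: deviations of 17 same-numbered pairs correlated at -0.328 to 0.328 after groups and batch, with 5 of 17 over 0.1 and the deep pair left out since the batch term fixes its value, so the block counts are given here only.

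Sparse or small differences changed sign. Cd4 (0.40) was -0.85 without a batch term, -1.32 without the deep libraries and -0.080 with the block, Cd8a (-0.61) was 1.32 and 0.98 with ComBat-seq and 0.16 with the block, and Gzmb (-0.20) was 0.12 and 0.055 with ComBat-seq. Without single libraries Krt25 ranged from -4.78 to 0.59, Ifng from -0.040 to 1.58, H2-K1 from -0.30 to 0.14, Cd4 from -1.36 to 1.40, Cd8a from -1.79 to 2.20, Gzmb from -1.08 to 1.46, Nos2 from -0.31 to 1.14, Arg1 from -1.34 to 0.47, Nr1d1 from -0.21 to 0.11, Dbp from -0.077 to 0.20, Pecam1 from -0.45 to 0.23, Hspa1a from -0.063 to 0.68 and Fos from -0.11 to 0.91. Of the other settings for named genes 3381 kept direction and side of the threshold, 92 passed it and 24 lost it. Of the settings for list medians 753 moved by less than the spread between replicates and 39 by more. The share of lower genes at an unadjusted p under 0.05 was 67.6%, against 53.9% with DESeq2, 78.0% without a batch term and 59.5% without overlapping genes. At a depth of 2211234 to 2946792 counts in 10 libraries, differences in genes of a few counts had wide errors.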
